A study of Mus musculus with 19 samples.

Results

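The 323 CpG sites of mouse chromosome 12 that the authors listed as differing between liver groups were described along the chromosome, with the window from 30 to 35 Mb (mm10), which holds the Golgi gene Cog5, set against the rest. Each site is 1 cytosine of a CpG on 1 strand. The members were chosen by their chromosome from 3 tables of the authors' own comparisons, in which sites had been selected on the methylation difference and q-value, and they were united on position and strand. They made up 323 of 8525 sites in all. Of the 323 sites, 259 were listed in WT vs KO placebo, 203 in WT vs KO SAMe and 12 in KO placebo vs KO SAMe.

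The study compared liver DNA of 8 untreated wild-type (MAT1A WT) mice, 6 MAT1A KO mice on placebo and 5 MAT1A KO animals supplemented with S-adenosylmethionine (SAMe), all 10 months old, with treatment running for 8 weeks. The WT animals were given neither placebo nor SAMe, so each WT comparison joins genotype with the treatment procedure. The labels describe the KO allele no further, and both KO groups carry it. Reduced-representation bisulfite sequencing reads methylation in DNA fragments cut out with MspI and TaqαI, so it covers CpG sites near those cut sites. The tables give 1 difference per site and comparison, with no level, coverage or value for any animal. The depth is therefore unknown, no value has an SD, and the liver label could not be checked against marker genes. Differences are in percentage points and were read as KO minus WT and as SAMe minus placebo. The tables do not state this order, and every direction turns round together if the authors used the opposite one.

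Mat1a encodes the liver's methionine adenosyltransferase, the enzyme that makes SAMe from methionine. SAMe donates the methyl group that DNA methyltransferases place on the cytosine of a CpG. Methylation of CpG sites in promoters is known for accompanying gene silencing, while methylation inside gene bodies and between genes is the usual state in liver.

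Of the 1275 RefSeq promoter windows on chromosome 12 (GRCm38.p6, the build whose coordinates mm10 shares), running from 250 bases before to 50 bases after a gene start, 5 held a listed site (0.392%), and they held 7 sites. Over all chromosomes 102 listed sites, counted per window, fell in 32817 such windows. How many of those windows held a site was not counted. The sequences are shown because these are the listed sites for which the surrounding DNA was at hand. They are written 5′ to 3′ on the strand of the gene, and capitals mark the CpG whose cytosine was listed. The first 3 are the 250 bases before the start of a long non-coding RNA gene, at chr12:52480610-52480859, chr12:110158074-110158323 and chr12:111273737-111273986, all on the minus strand. The last 2 are 30-base stretches after a start, at chr12:76324911-76324940 on the plus strand for Akap5, the gene of an anchoring protein for protein kinase A, and at chr12:81791056-81791085 on the minus strand for the non-coding RNA gene Gm46366.
Gm35135: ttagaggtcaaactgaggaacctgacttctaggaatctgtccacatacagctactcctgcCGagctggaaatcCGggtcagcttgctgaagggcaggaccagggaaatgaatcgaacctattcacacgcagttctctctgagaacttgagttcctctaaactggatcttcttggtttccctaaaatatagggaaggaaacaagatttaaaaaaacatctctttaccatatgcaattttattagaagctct
3110009F21Rik: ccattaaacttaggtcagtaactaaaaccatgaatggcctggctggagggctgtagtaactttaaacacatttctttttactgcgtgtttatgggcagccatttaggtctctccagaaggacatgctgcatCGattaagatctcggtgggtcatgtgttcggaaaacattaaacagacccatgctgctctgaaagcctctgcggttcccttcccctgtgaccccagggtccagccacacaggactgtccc
Gm51960: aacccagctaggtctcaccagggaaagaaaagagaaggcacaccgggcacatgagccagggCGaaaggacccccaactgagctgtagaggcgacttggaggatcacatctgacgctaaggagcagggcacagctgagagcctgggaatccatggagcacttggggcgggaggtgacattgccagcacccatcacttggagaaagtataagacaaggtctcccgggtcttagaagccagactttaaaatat
Akap5: gtctccggggctctcCGttgtttgggccCG
Gm46366: aaggccgagtcagctCGagcttctgaagac

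Both CpG sites of the Gm35135 window, 176 and 189 bases before its start, were lower in both KO groups. The site at −176 stood at −36.9 in KO placebo and −43.4 in KO SAMe in the authors' deposited tables, and the site at −189 at −39.7 and −45.1. Both Akap5 sites, at positions 36 and 49 after the start of the RefSeq window, were lower as well. The first stood at −25.4 and −30.7 and the second at −34.8 and −32.4 in the authors' deposited tables, in KO placebo and KO SAMe in turn. The other windows held 1 site each, listed against WT in a single comparison close to the threshold of 20. In the authors' deposited tables Gm46366 stood at −20.3 in KO placebo, 3110009F21Rik at −21.1 in KO SAMe and Gm51960, which overlaps the surroundings of Amn, which encodes part of an intestinal vitamin receptor, at −20.1 in KO SAMe. The sequences were searched for CCGG and TCGA, the recognition letters of MspI and TaqαI, which read the same on both strands. The listed CpG lay inside CCGG at the −176 site of Gm35135 and inside TCGA in 3110009F21Rik and Gm46366, and the other 4 sites lay 8 to 21 bases from the nearest such motif. CCGG occurs in 52.8% and TCGA in 22.0% of the 32817 RefSeq promoter windows of the genome. At the 102 listed positions that fell in a promoter window on any chromosome, the reference had the cytosine of a CpG on the listed strand in all 102.

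Lower methylation in KO liver made up nearly all of the chromosome 12 list. In WT vs KO placebo 256 of 259 sites were lower (98.8%), where 99.4% of the sites were lower over all chromosomes, and in WT vs KO SAMe 198 of 203 (97.5%), against 99.0%. Since the list itself was selected on the size of these differences, the shares describe the list and no test was made. The median absolute difference on chromosome 12 was 25.9 for KO placebo against WT and 27.3 for KO SAMe against WT in the authors' deposited tables, close to the medians of 25.9 and 26.7 over all chromosomes. Differences of at least 40 made up 26 of 259 sites (10.0%, 9.27% over all chromosomes) and 23 of 203 sites (11.3%, 10.8% over all chromosomes). For differences of at least 60 the counts were 4 of 259 and 6 of 203, where 0.595% and 0.669% of sites reached that size over all chromosomes. By number of sites at 60 or more, chromosome 12 came second to chromosome 14, the chromosome of Mat1a, among 20 chromosomes in both WT comparisons. Chromosome 14 had 17 and 12 such sites, and no other chromosome had more than 3.

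**Figure D1:**
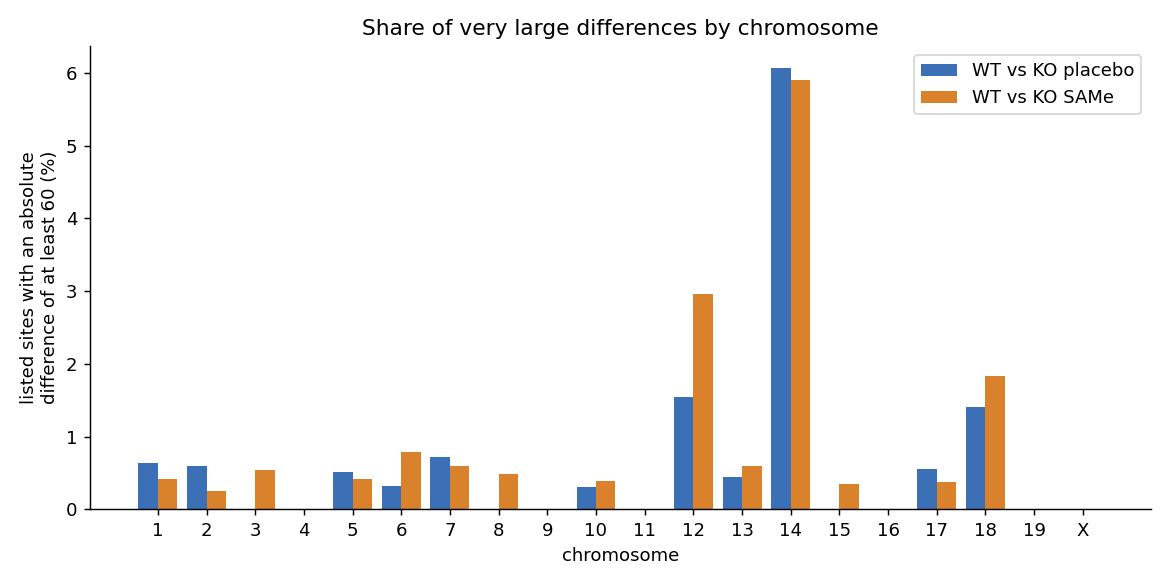
Percent of listed CpG sites with an absolute methylation difference of at least 60 percentage points (y axis) by chromosome (x axis), in WT vs KO placebo (blue) and WT vs KO SAMe (orange). Chromosome 14 is highest in both comparisons, with 6.07% and 5.91%, and chromosome 12 is second, with 1.54% and 2.96%.

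At the smallest differences listed on chromosome 12, the authors' deposited tables gave −20.01 for WT vs KO placebo (position 107670813) and −20.04 for WT vs KO SAMe (position 85201700). The sites next to the size of 40 were those of Itpk1 at −39.7 and of Ccdc85c at −40.3 in WT vs KO placebo. Next to 60 they stood at −59.6 (position 111436740) and −63.1 (position 34024729) in the authors' deposited table. Sites below the thresholds are not listed, so a missing site either did not pass or was not covered.

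The window from 30 to 35 Mb held 13 sites, 12 of them listed for KO placebo against WT and 8 for KO SAMe against WT. It held 3 of the 4 chromosome 12 sites at 60 or more for KO placebo against WT and 4 of the 6 for KO SAMe against WT. It also held every higher site of the chromosome in WT vs KO placebo, 3 of 3, and 4 of 5 in WT vs KO SAMe. Over the 12 sites the median absolute difference was 30.8, against 25.8 over the 247 other sites of chromosome 12. For KO SAMe against WT it was 54.2 over 8 sites, against 27.2 over 195. Both window medians pool losses with gains. The 8 sites were 4 losses, from −66.5 to −79.6, and 4 gains within 183 bp, from 27.0 to 41.9. The value of 54.2 falls between the gains and the losses and describes no site. The gap between the medians of absolute differences, 5.03 and 27.0, depends on where the window ends. With a window from 31 to 34 Mb it was 1.25 and 11.4. In WT vs KO SAMe it was 50.6 when neighbouring sites were counted once, and 50.5 over lower sites alone, a setting added after the values were seen. The window was proposed with results of these data known, so these values are a description.

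**Figure D2:**
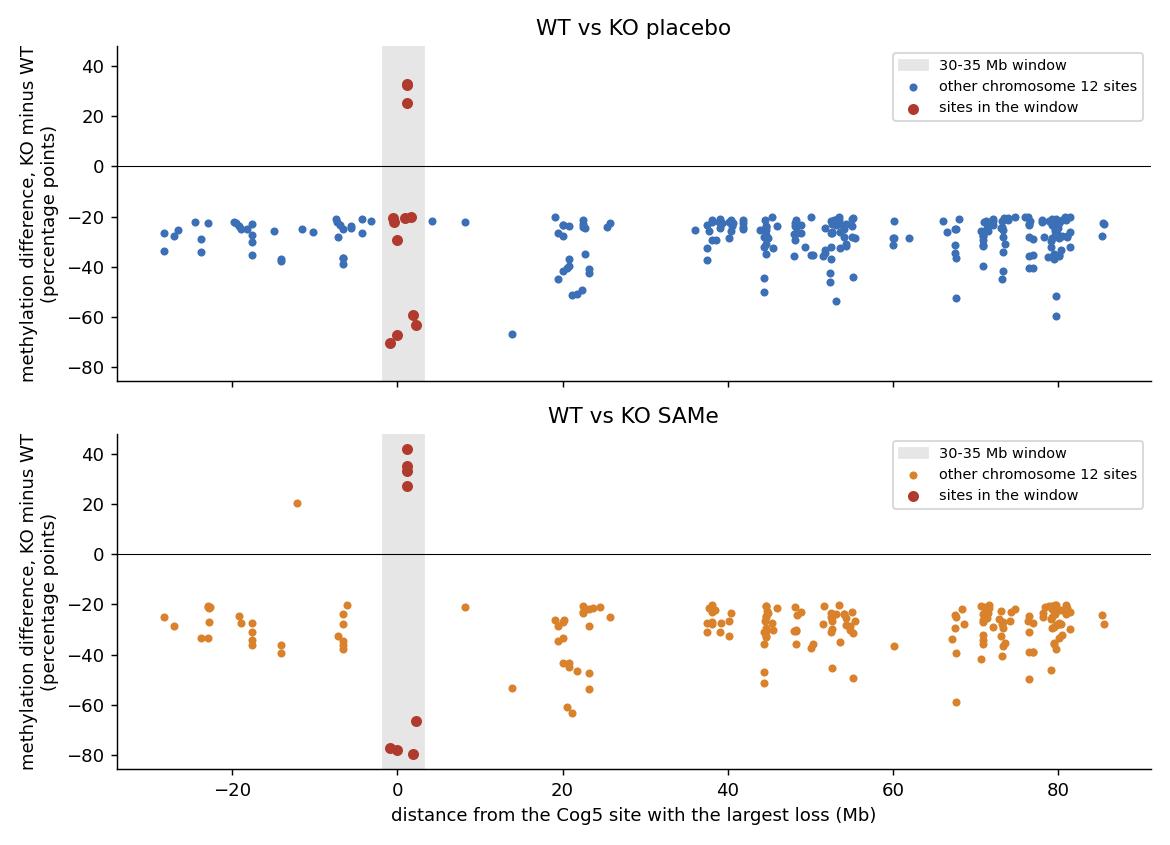
Methylation difference of each listed chromosome 12 site in percentage points, KO minus WT (y axis), against its distance in Mb from the Cog5 site with the largest loss (x axis), for WT vs KO placebo (top) and WT vs KO SAMe (bottom). The shaded window holds 4 sites near or beyond −60 in each comparison together with the only run of higher sites, and most other sites lie between −20 and −40.

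The losses that set the window apart were 4 single CpG sites spread over 3.19 Mb, with 0.369 to 1.91 Mb between neighbours. None had a listed site closer than 29.7 kb. The first, at position 30839182 on the plus strand, lay outside coding genes, 45.1 kb from Alkal2, which encodes a ligand of the receptor kinases ALK and LTK. It stood at −70.5 in KO placebo and −77.3 in KO SAMe in the authors' deposited tables. The second, at position 31748836 on the plus strand, lay inside Cog5 (31654819 to 31937630), which encodes a subunit of the complex that tethers vesicles at the Golgi. The authors' deposited tables gave it −67.2 and −78.1. The third, at position 33655813 on the minus strand, was 216 kb from the nearest coding gene, Twistnb. It stood at −59.1 in KO placebo and −79.6 in KO SAMe, the largest difference of chromosome 12 in the authors' deposited tables. The last, at position 34024729 on the minus strand, lay 22.9 kb from Hdac9, which encodes a class IIa histone deacetylase, and stood at −63.1 and −66.5. All 8 q-values were listed as 0. By subtraction, the SAMe value lay 3.37 to 20.5 percentage points farther from WT than the placebo value. Of the 4 sites, the table that sets KO SAMe against KO placebo listed only position 33655813 (−20.5, q = 0.0122). Both WT comparisons use the same 8 WT animals.

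The higher sites formed a run of 4 within 183 bp (32929979 to 32930161), the only run of higher sites on the chromosome. It lay inside the long non-coding RNA gene 4933406C10Rik, 23.7 to 23.9 kb from Sypl, the gene of a synaptophysin-like membrane protein. In the authors' deposited tables the first stood at 25.1 in KO placebo and 35.2 in KO SAMe, the second at 33.0 and 41.9 and the third at 32.4 and 33.1. The site at 32930161 was listed in WT vs KO SAMe only, at 27.0. The first 3 sites also lay in the pseudogene Gm19056 and the last in the pseudogene Gm18622. How the authors' alignment treated copies of such sequence is not given in the sources used here, and a part of such copies in these values was not tested.

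The other 5 sites of the window were single, lower and listed in WT vs KO placebo only. So were 112 of the 259 sites of that comparison on chromosome 12 listed there only, and 2959 of 6721 over all chromosomes. A second Cog5 site, at position 31719150, stood at −29.2 in the authors' deposited table, 29.7 kb from the large loss in the same gene. Lamb1, which encodes the laminin beta 1 chain of basement membranes, stood at −22.2, and Efcab10 at −20.03. A site in the non-coding RNA gene 6030469F06Rik stood at −20.3, and one 188 kb from Nampt, the gene of the rate-limiting enzyme of NAD salvage, at −20.4. Of the 31 coding genes that overlap the window, 3 had a listed site in or within 2 kb: Lamb1, Cog5 and Efcab10. Over the whole chromosome 113 of 679 coding genes had one (16.6%), so the window's genes did not carry sites more often. On either side the nearest listed sites were those of Colec11 at 28.6 Mb (−21.7 in KO placebo) and Agr3 at 35.9 Mb (−21.7) in the authors' deposited table. No site was listed between these and the outer large losses. Where the large values end is therefore not known, and differences near −20 also lay between the large losses.

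**Figure D3:**
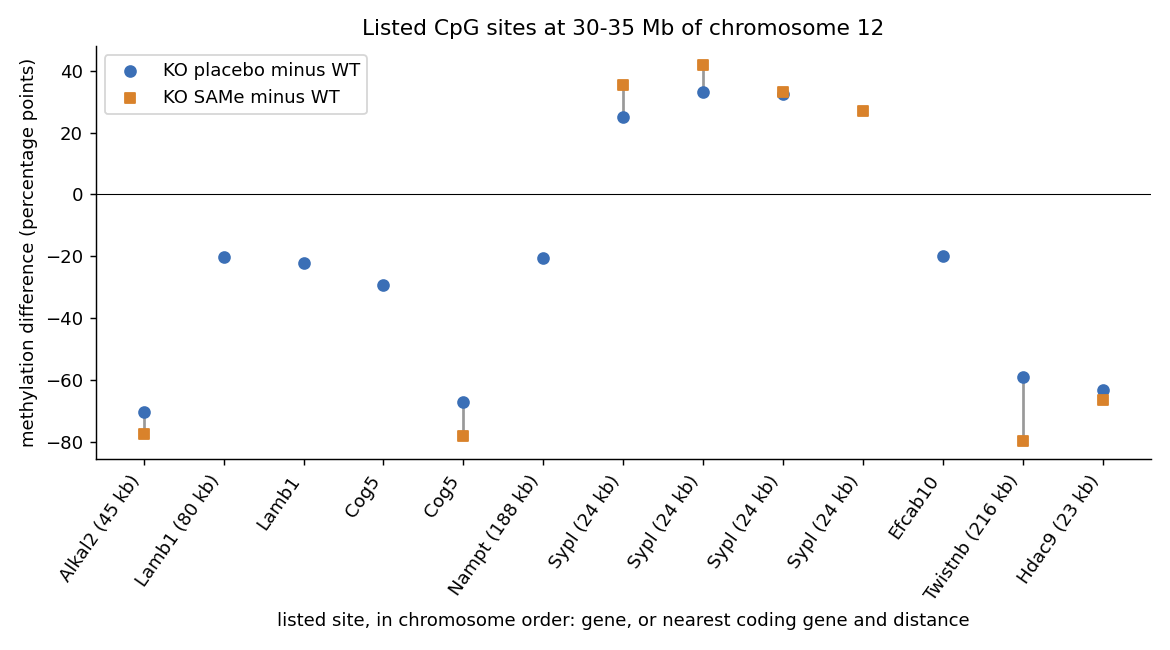
Methylation difference in percentage points (y axis) at the 13 listed sites of the 30-35 Mb window in chromosome order (x axis, named by the gene or by the nearest coding gene with its distance), as KO placebo minus WT (circles) and KO SAMe minus WT (squares), joined where both were listed. Lines lead further from 0 under SAMe at all 7 sites listed in both comparisons.

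Among the 5 Mb bins of all chromosomes, 470 held a listed site in WT vs KO placebo and 24 held a site at 60 or more. The bin from 30 to 35 Mb held 3 such sites. Another 5 bins held at least as many, 3 of them on chromosome 14 and the others on chromosomes 2 and 5, and 1 bin held more. In WT vs KO SAMe the window's 4 sites were matched by 1 other bin, at 50 to 55 Mb of chromosome 14, and exceeded by 0 of 446 bins with a site.

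Over all 25 bins of 5 Mb on chromosome 12, the window's included, the number of listed sites per bin ran from 0 to 45, with a median of 10. The bin from 110 to 115 Mb held the most, with 45 sites, and 3 bins had none. One of these was the last bin, from 120 Mb on, which holds 0 coding genes. In the bin from 110 to 115 Mb a site against WT fell in or near 15 of 63 coding genes for KO placebo (23.8%) and 12 for KO SAMe. The shares over all coding genes of the genome were 12.5% and 10.8%, and over the 679 of chromosome 12 they were 14.6% and 10.8%. Since this bin was picked for holding the most sites, a share above these is partly built in. It was not the highest share of the chromosome. From 50 to 55 Mb 38.1% of 21 coding genes had a site for KO placebo and 23.8% for KO SAMe. From 90 to 95 Mb it was 28.6% of 7 for KO placebo. No site fell in the immunoglobulin heavy chain locus, 2.75 Mb with 216 annotated segments (113256204 to 116009954).

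Apart from the window, large losses gathered from 50 to 55 Mb, a bin chosen after its values were seen. It held 8 of the 26 sites at 40 or more in WT vs KO placebo, among 21 listed sites (38.1%), and 8 of the 23 in WT vs KO SAMe, among 19 (42.1%). Outside these 2 bins 14 of 226 sites (6.19%) and 10 of 176 (5.68%) reached 40. The median difference in the bin was −34.7 in KO placebo and −33.3 in KO SAMe, and every site listed against WT was lower. Its largest loss lay in Akap6, which encodes an anchoring protein of the nuclear envelope in muscle, with −51.3 and −63.2 at position 52854827 in the authors' deposited tables. Nubpl, which encodes an assembly factor of mitochondrial complex I, stood at −40.5 in KO placebo and −60.9 in KO SAMe (position 52297741). Npas3, a transcription factor gene known from brain development, had 2 distant sites in WT vs KO placebo, at −50.6 and −49.3, of which the first was listed in WT vs KO SAMe too, at −46.3. Baz1a, which encodes a subunit of ACF-type chromatin remodelling complexes, had 4 sites, with −40.7 and −42.4 in KO placebo at 2 sites 6 bp apart and −53.8 and −47.4 at the same sites in KO SAMe. The Gm35135 window printed above lies in this bin. A single site at position 45600441, 525 kb from the nearest coding gene, stood at −66.8 in KO placebo and −53.2 in KO SAMe, and it was the only listed site between 45 and 50 Mb.

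**Figure D4:**
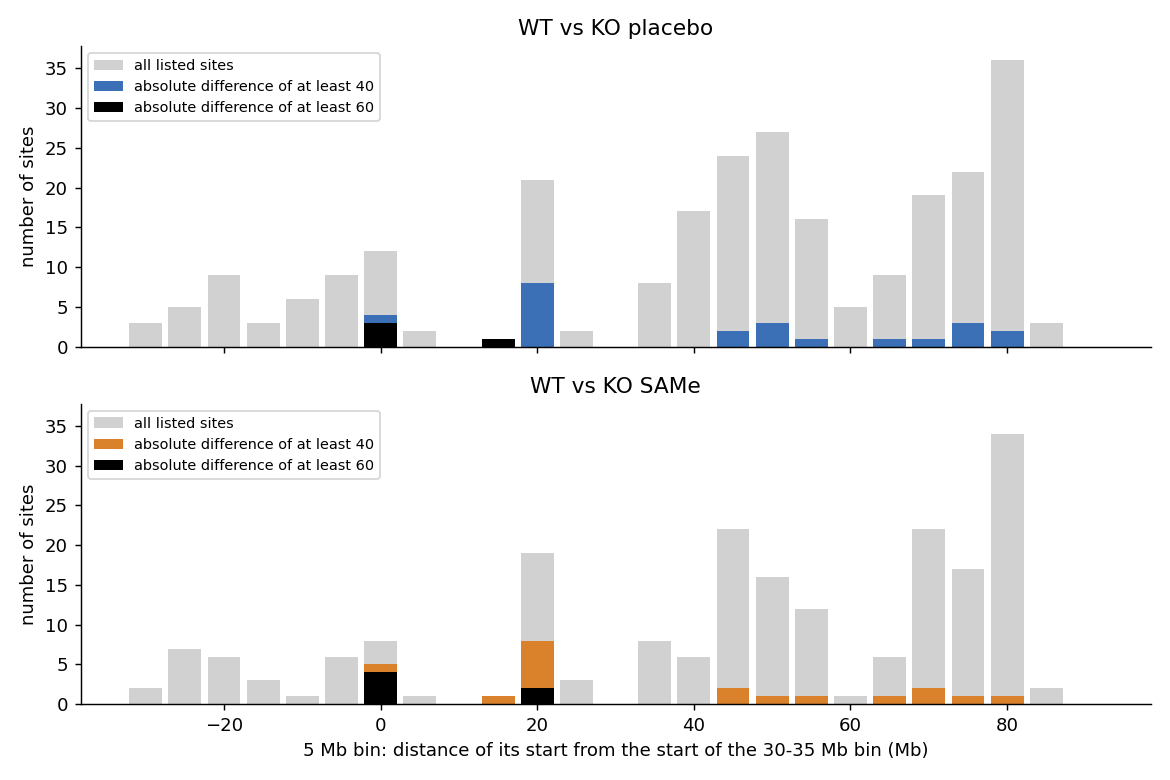
Number of listed chromosome 12 sites (y axis) per 5 Mb bin (x axis, distance of the bin's start from that of the 30-35 Mb bin), for WT vs KO placebo (top) and WT vs KO SAMe (bottom), with sites at 40 or more in colour and at 60 or more in black. Bars with colour are tallest at 0 and 20 Mb, while the most listed sites lie at 80 Mb, where 36 and 34 were listed.

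The 323 sites formed 234 regions when sites within 1 kb were joined. Of these, 173 were single sites and 20 held 3 or 4, which spanned 19 to 983 bp. Of the 51 regions with 2 or more sites in WT vs KO placebo, 0 held both signs. The differences within a region spanned a median of 4.77 percentage points, up to 23.7. One CpG was listed on both strands, in the kinesin light chain gene Klc1 (positions 111795392 and 111795393). In the authors' deposited tables its plus strand stood at −22.2 in KO SAMe and its minus strand at −22.6 in KO placebo, so the strands had been kept as separate sites.

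Inside a coding gene lay 192 sites (59.4%), and 205 (63.5%) lay in or within 2 kb of one. The gene table holds no exons, so introns, exons and untranslated regions were not told apart. A listed site occurred in or near 113 of the 679 coding genes of the chromosome, in 99 for WT vs KO placebo and 73 for WT vs KO SAMe. Of the 113 genes, 65 had 1 site, and 15 had 4 or more, together 69 sites. In all 99 and in 72 of the 73 genes every site was lower. The exception was the predicted gene Gm9257, with 20.3 at position 19607403 in WT vs KO SAMe in the authors' deposited table.

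Itpk1 and Foxn3 carried the most sites, 7 each. Itpk1 encodes an inositol phosphate kinase, and its 7 sites were listed in both WT comparisons, from −39.7 to −22.2 in KO placebo and from −35.6 to −21.2 in KO SAMe in the authors' deposited tables. Its sites fell into 4 places of the gene, the last 159 bp from the hairpin of the microRNA gene Mir1936. Foxn3, which encodes a forkhead transcriptional repressor, had 6 sites for KO placebo against WT and 5 for KO SAMe against WT. The strongest lay at position 99368626, with −52.5 and −58.8, and its neighbour 26 bp away stood at −36.5 and −39.3. Syne2, the gene of the nuclear envelope protein nesprin-2, had 4 sites within 48 bp (76081772 to 76081819). They stood at −32.3, −44.2, −50.1 and −28.0 in KO placebo and at −35.9, −46.7, −51.2 and −31.1 in KO SAMe in the authors' deposited tables, so the middle sites were lower than the outer ones in both. Syne3, which encodes nesprin-3, had 5 sites, down to −41.8 in KO placebo and −36.5 in KO SAMe. Ccdc85c had 5 sites, with the lowest at −40.3 and −49.9 in the authors' deposited tables.

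Some large losses were listed in WT vs KO placebo alone. Ltbp2, which encodes a matrix protein related to the TGF-beta binding proteins, stood at −53.7 at position 84787090 in the authors' deposited table, the largest of its 4 sites. Acot5, an acyl-CoA thioesterase gene, had 2 sites 36 bp apart at −46.2 and −42.3. Others were listed in WT vs KO SAMe alone, at −45.2 (position 84388257) and −41.6 (position 102437088). Whether such sites were covered in the other comparison is not given. Irf2bpl had a pair of sites 16 bp apart, at −20.4 and −44.1 in KO placebo and at −31.4 and −49.4 in KO SAMe in the authors' deposited tables.

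The 6 gene lists held 88 coding genes of chromosome 12. Of these, 11 (12.5%) carried a site for KO placebo and 9 (10.2%) for KO SAMe. These pooled shares lay near the 14.6% and 10.8% of all coding genes of the chromosome. Single lists differed, from 0 of 4 entries (imprinted cluster) to 4 of 14 (liver metabolism) for KO placebo. Of 14 liver metabolism genes, 4 carried a site for KO placebo against WT and 3 for KO SAMe against WT, all lower. Degs2, a sphingolipid desaturase and hydroxylase gene, had 3 sites within 143 bp, at −28.7, −35.2 and −40.5 in KO placebo and −27.2, −39.1 and −38.8 in KO SAMe in the authors' deposited tables. Apob, which encodes the core protein of lipoproteins made by liver, stood at −28.8 and −33.5, and Mthfd1, a folate enzyme gene, at −21.3 and −26.5. Mboat2, an acyltransferase gene of phospholipid remodelling, stood at −23.2 in KO placebo. Of 20 serpin A genes, the family of plasma protease inhibitors, only Serpina1a had a site, at −23.5 and −28.9. It belongs to a group of near-identical gene copies, so its value is uncertain. Of 6 acyl-CoA thioesterase genes Acot5 alone had sites.

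Of the 25 listed transcription and chromatin genes, 3 had sites in each WT comparison, near the chromosome's 14.6% and 10.8%. Other such genes with a listed site are not on the list, among them Baz1a and Npas3, described above. Its share therefore describes the genes chosen for it. Foxa1, a pioneer factor of liver development, stood at −22.3 and −25.1 at a site shared with its neighbour Ttc6, and Foxn3 is given above. Asxl2, a Polycomb-associated gene, was listed in WT vs KO placebo alone (−26.6), and Esrrb, an orphan nuclear receptor gene, in WT vs KO SAMe alone, with 2 sites at −28.5 and −30.4 in the authors' deposited tables. The de novo methyltransferase gene Dnmt3a, which lies on this chromosome, had no listed site. Signalling genes had sites in 2 of 19 in each WT comparison, again near the chromosome's shares. Traf3, which encodes an adaptor of TNF receptors, had 4 sites, the lowest at −36.7 and −35.8, and Ptprn2, a phosphatase-like gene of secretory vesicles, had 3, the lowest at −27.6 in KO placebo and, at another site, −27.9 in KO SAMe. By the lowest site of each gene, the medians over all listed genes of the chromosome were −27.6 in KO placebo and −29.2 in KO SAMe. The medians were −26.0 and −33.5 for the metabolism genes, −26.6 and −30.4 for the transcription genes and −32.1 and −31.9 for the signalling genes. The 4 imprinted-cluster entries are coding genes, and they had no site against WT. Between the coding genes Rtl1 and Dio3, however, sites were listed, all lower. In KO SAMe they stood at −25.0 (position 109858883), −23.5 (109858899) and −21.1 (110158192, the 3110009F21Rik site printed above). In KO placebo the site at 110046355 stood at −28.0, and the pair near Mir3072, given next, lies there too. Of the 92 microRNA hairpins of the chromosome, 4 had a listed site within 2 kb, a share that was not counted over the genome. Among them, Mir3073a and Mir3073b overlap and share the same site, in Aspg. Another was Mir3072 of the Dlk1-Dio3 cluster, with 2 sites about 1.9 kb away at −21.2 and −21.9 in KO placebo.

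Between the KO groups 12 chromosome 12 sites were listed, 8 higher and 4 lower with SAMe. Over all chromosomes 70.0% of the sites in that table were higher. Absolute differences ran from 20.3 to 25.3. The largest, 25.3, lay at position 23426736 in the predicted gene Gm40862 (q = 1.99e-04). The predicted gene Gm38702 stood at 20.4, and a site 45.1 kb from Gm9257 at −20.3 in the authors' deposited table. These 3 sites lie between 19 and 24 Mb, where 22 of 31 coding genes have predicted-gene symbols and 6 listed sites fell in all. How the alignment treated repeated sequence there is not given in the sources used here. Bdkrb1, which encodes the B1 bradykinin receptor, was higher with SAMe by 20.5, and a site in the non-coding RNA gene Tunar by 21.1. Begain, which neighbours the imprinted Dlk1-Dio3 cluster, was lower by 21.5 (q = 1.01e-09), the only entry of the imprinted list with a site in any comparison. A site at position 107338872, far from coding genes, was higher by 21.4. None of these 7 sites was listed against WT. Over all chromosomes the same held for 128 of the 230 sites listed between the KO groups.

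The remaining 5 sites were also listed against WT. Ston2, the gene of an endocytic adaptor, stood at −28.4 in KO placebo and was higher with SAMe by 23.5, which leaves it −4.94 from WT by addition. A pair of sites 15 bp apart at 111436725 and 111436740, 5.05 and 5.06 kb from the exocyst-like gene Exoc3l4, stood at −51.6 and −59.6 in KO placebo and at −28.3 and −37.6 in KO SAMe. The authors' deposited table of the KO groups gave 23.3 and 22.0 for them. Nubpl and the site at 33655813 went the other way, each lower with SAMe by 20.4 and 20.5. For the 4 sites that every table listed, adding the placebo value and the KO SAMe against KO placebo value gave the SAMe value.

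**Figure D5:**
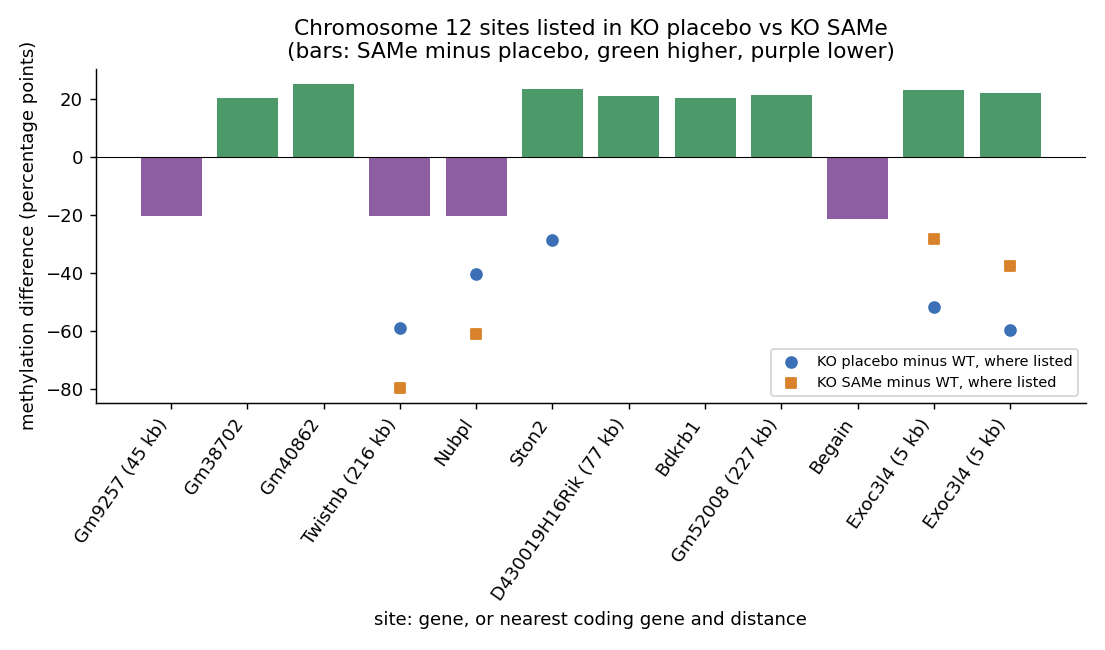
Methylation difference in percentage points (y axis) at the 12 chromosome 12 sites listed between the KO groups (x axis, in chromosome order, by gene or nearest coding gene with its distance), with bars for SAMe minus placebo and points for each KO group minus WT where listed. Bars stand above 0 at 8 sites and below at 4, and points are present at 5 sites.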

How the data were processed

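Liver DNA of 19 mice was measured by reduced-representation bisulfite sequencing. Per the submitters' processing notes, CASAVA 1.8.2, Trim Galore, Bismark and methylKit were used with build mm10, without order or settings. The authors deposited 3 tables of their own comparisons, 1 CpG per line, with a p-value, a q-value and a signed methylation difference in percentage points. All listed sites exceed an absolute difference of 20, and the test behind the p-values is not given in the sources used here. Whether the spread between animals entered it is not given either.

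Sites of chromosome 12 were united on position and strand, joined into regions within 1 kb and assigned to 21887 coding genes (RefSeq, GRCm38.p6) with 2 kb at either end (Python 3.11.15, pandas 2.3.3, SciPy 1.17.1). The code was tested on simulated data. No test was made, because the sites were selected on the same differences. Members, window and gene lists were chosen with earlier results of these data known. Genes were named by rule: all sites of the window, the 10 largest differences per WT comparison outside the window, all gains, all sites between KO groups or in all 3 tables, list members and promoter sites. The rule's regions of 5 or more sites did not occur, so some of the 15 genes with 4 or more sites were described instead. That choice, the microRNA genes and Klc1 were added after the values were seen. A list's counts were not adjusted over the list alone, because no test was run.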

Additional observations from a re-analysis of the deposited data

Results flagged for a closer look

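At 5 chromosome 12 sites that were listed against WT, the authors' table of KO placebo vs KO SAMe listed the site too, so the effect in KO liver differed between placebo and SAMe by the authors' q-value. SAMe was not given to any WT mouse, so an interaction of genotype with treatment could not be tested. The authors' deposited table gave −20.5 for SAMe minus placebo at position 33655813 (q = 0.0122) and −20.4 in Nubpl at 52297741 (q = 0.0145). It gave 23.5 in Ston2 at 91717632 (q = 0.00706), 23.3 at 111436725 (q = 3.44e-05) and 22.0 at 111436740 (q = 5.61e-05). Both WT comparisons share the 8 WT animals. Of the sites listed between the KO groups, 7 of 12 on chromosome 12 and 128 of 230 over all chromosomes were not listed against WT.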

How the results depend on the processing

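Of 24 alternatives tried, 14 left the value within 1.5 times of that reported (counts and gaps between medians) or within its 95% exact binomial interval (shares), and 0 changed a direction. The exact intervals treat sites as independent, although neighbouring sites share animals and reads. Sites at 40 or more made up 10.0% and 11.3% in the 2 WT comparisons. At a cut-off of 30 the shares were 29.7% and 36.9%, and at 50 they were 4.63% and 4.93%, as a change of cut-off must give. Among sites of at least 25 between the KO groups 0% were lower, over a single site. For the gap between the median absolute difference at 30-35 Mb and that of the rest, 5.03 in WT vs KO placebo became 3.34 with a window from 29 to 36 Mb and 1.25 with one from 31 to 34 Mb. In WT vs KO SAMe 27.0 became 11.4 from 31 to 34 Mb, 50.6 with each region counted once and 50.5 over lower sites only, the last added after seeing the data. The narrower window leaves out 2 of the 4 large losses. No alternative could leave out an animal, and depth is unknown, since the tables hold no values per animal.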
